A study of Mus musculus with 8 samples.

Results

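The subunits of the transcription factor NF-kB and the inhibitors that the factor itself induces were followed in mouse lung after removal of the left lung. The 10 genes named for this group are Nfkb1, Nfkb2, Rel, Rela, Relb, Nfkbia, Nfkbie, Nfkbiz, Tnfaip3 and Bcl3, of which 9 are measured by at least 1 probe set that the array annotation gives to that gene alone. Nfkb1 was not analysed here. These 9 genes stand among 18193 genes with such a probe set, and they have 18 of the 45037 probe sets tested. They are named by their place in the pathway, and the group was set up with earlier results of these data known.

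NF-kB is a dimer built from the subunits Rela (p65), Rel (c-Rel), Relb and the processed products of Nfkb1 (p50) and Nfkb2 (p52). In resting cells IkB proteins hold it in the cytoplasm, and when signals from cytokine or Toll-like receptors lead to their breakdown the dimer enters the nucleus and switches on cytokine, adhesion and survival genes. Among its own targets are the inhibitors Nfkbia (IkB-alpha) and Nfkbie (IkB-epsilon), the ubiquitin-editing enzyme Tnfaip3 (A20), and the nuclear IkB proteins Bcl3 and Nfkbiz (IkB-zeta), so that activation of the pathway also raises its brakes. In the lung, epithelium, macrophages, endothelium and recruited leukocytes all use the pathway.

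The mice were female C57BL/6 animals, 10 to 12 weeks old and of no altered genotype by the labels. In the pneumonectomy group (PNY) the left lung was tied off and removed, and in the sham group (SHAM) the chest was opened and closed without resection. Both groups received the same ketamine and xylazine anesthesia, mechanical ventilation, ampicillin and buprenorphine, and there is no group without surgery, so a response to anesthesia and thoracotomy that both share cannot be seen against an unoperated baseline. Lungs were taken at 6 hours and at 1, 3 and 7 days, with equal amounts of tissue from 8 mice pooled for each of the 8 arrays. There is thus 1 array for each surgery at each time point, the arrays show no spread between mice, and their number limits the precision of every value. In this whole tissue RNA, fewer cells of a type and less RNA per cell cannot be told apart.

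All values are RMA expression values on the log2 scale, so a difference of 1 is a doubling. The array medians lie between 5.90 and 5.95. The 10 marker genes of alveolar and airway epithelium, Sftpc and Scgb1a1 among them, summed to 121308 to 127553 on the linear scale over the 8 arrays, so the defining genes of the labelled tissue are present. The PNY array of 1 day stood apart in lymphoid genes, with summed levels of 2826 for 10 T cell markers and 1750 for 6 thymocyte markers, against 1328 and 562 on the SHAM array of 1 day.

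The sequences at the start of the genes were searched for the motif that NF-kB dimers read. Promoter windows of 300 bases, from 250 before an annotated transcription start to 50 bases of the transcript, were taken from RefSeq for build GRCm38.p6 and were present for 7 of the 9 genes, in 10 windows. Relb and Nfkbiz were not among them. The NF-kB consensus, a motif of 10 letters searched on both strands, was found in 8 of the 10 windows and in at least 1 window of 6 of the 7 genes. Of all 32851 mouse windows of the same length, 4.51% hold it. The inhibitors were named as genes that NF-kB induces, so the comparison with all windows is not independent of the choice of genes. The 10 windows are not independent, since a pair of Nfkb2 windows (chr19:46305445-46305744 and chr19:46305680-46305979) overlaps and shares 1 match. The windows of the inhibitors Nfkbia (chr12:55492598-55492897, minus strand), Nfkbie (chr17:45555450-45555749, plus strand) and Bcl3 (chr7:19822706-19823005, minus strand) are shown because the differences between time points below concern these genes, and the first window of the subunit gene Nfkb2 (chr19:46304487-46304786, plus strand) because it holds 3 matches, which 0.0517% of all windows reach. Each is read 5′ to 3′ in the direction of the gene, and capitals mark the matches.
Nfkbia: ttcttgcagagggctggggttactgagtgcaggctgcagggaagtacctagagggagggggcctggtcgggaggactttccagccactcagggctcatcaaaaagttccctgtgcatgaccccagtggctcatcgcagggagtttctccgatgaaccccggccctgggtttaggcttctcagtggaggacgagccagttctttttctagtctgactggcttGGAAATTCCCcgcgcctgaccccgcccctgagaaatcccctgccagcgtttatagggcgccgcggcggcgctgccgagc
Nfkbie: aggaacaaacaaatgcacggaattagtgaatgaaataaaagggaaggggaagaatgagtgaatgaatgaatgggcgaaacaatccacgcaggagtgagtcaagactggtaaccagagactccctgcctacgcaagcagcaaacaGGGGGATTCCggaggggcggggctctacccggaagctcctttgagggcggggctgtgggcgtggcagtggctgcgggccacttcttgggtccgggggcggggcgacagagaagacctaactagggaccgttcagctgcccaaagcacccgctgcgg
Bcl3: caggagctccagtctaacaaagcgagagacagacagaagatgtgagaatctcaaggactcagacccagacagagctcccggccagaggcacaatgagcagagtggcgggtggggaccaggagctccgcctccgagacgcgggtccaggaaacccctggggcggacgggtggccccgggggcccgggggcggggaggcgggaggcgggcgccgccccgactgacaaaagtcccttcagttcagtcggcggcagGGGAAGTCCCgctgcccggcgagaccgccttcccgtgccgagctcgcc
Nfkb2: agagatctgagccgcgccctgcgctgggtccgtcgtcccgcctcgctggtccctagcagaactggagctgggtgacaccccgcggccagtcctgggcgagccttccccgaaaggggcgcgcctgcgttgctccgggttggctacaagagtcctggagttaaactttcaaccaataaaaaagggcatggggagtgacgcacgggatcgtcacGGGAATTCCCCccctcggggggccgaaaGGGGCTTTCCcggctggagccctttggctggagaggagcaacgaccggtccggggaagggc
In Nfkbia the match begins 29 bases upstream of the start. A second stretch close to the consensus nearby does not hold all of its letters. The match lies 106 bases upstream in Nfkbie, and in Bcl3 it begins at base 3 of the transcript. In Nfkb2 a pair of matches overlaps 39 and 38 bases upstream, and the other match begins 11 bases upstream. Rel holds a pair of overlapping matches 92 and 91 bases upstream, in chr11:23770920-23771219 on the minus strand. Tnfaip3 holds matches 125 and 12 bases upstream, in chr10:19015361-19015660 on the minus strand. The window of Rela, chr19:5637291-5637590 on the plus strand, has no match. A match describes the letters and not binding, and no binding was measured in these samples.

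In its time-independent analysis the study asked which genes differ between PNY and SHAM lungs, with the 4 time points taken as replicates. None of the 9 NF-kB genes met the criterion of a rank product P-value under 0.001 together with a 1.5-fold change or more. Over all genes 0.566% met it. The mean differences ran between -0.024 for Bcl3 and 0.073 for Nfkbie, so the changes in level were at most 1.05-fold, and the spread of the 4 differences was larger than the mean for every one of the 9 genes. PNY lungs were higher on average in 7 of the 9. The median difference was 0.03 over the members and 0.01 over all genes.

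The main DNA-binding subunit of inflammatory signalling, Rela, had log2 values of 10.85, 10.55, 10.67 and 10.77 at 6 hours and 1, 3 and 7 days in PNY lungs, against 10.75, 10.58, 10.57 and 10.84 in SHAM lungs. The surgeries overlapped, and the gene moved over a range of only 0.30 across the 8 arrays, the narrowest of the 9. Its mean was 10.71 ± 0.13 in PNY and 10.68 ± 0.13 in SHAM (SD, n = 4 arrays each), a difference of 0.026 ± 0.09 (SD of the 4 differences) with a rank product P of 0.519 and an exact permutation p of 0.743.

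Rel encodes c-Rel, the subunit best known from lymphocytes. It had log2 values of 5.73, 5.58, 5.48 and 5.37 at the 4 times in PNY lungs, against 5.90, 5.13, 5.33 and 5.74 in SHAM lungs. PNY was lower at 6 hours and 7 days and higher at 1 and 3 days, so the mean difference of 0.016 ± 0.36 joins opposite signs. The rank product P was 0.311 and the exact permutation p 0.943. At 1 day the difference was 0.45, on the pair of arrays where the T cell and thymocyte sums stood furthest apart, and the part of those cells in it was not tested.

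Nfkb2 and Relb encode the subunits of the non-canonical branch, p52 and RelB. Nfkb2 had log2 values of 7.77, 7.82, 8.18 and 8.25 in PNY lungs, against 7.81, 7.86, 8.05 and 8.07 in SHAM lungs. Relb had 7.56, 7.69, 8.01 and 8.04 in PNY lungs, against 7.68, 7.50, 7.88 and 8.09 in SHAM lungs. In both genes the arrays of 3 and 7 days were higher than those of 6 hours and 1 day within each surgery, while the surgeries overlapped. The PNY minus SHAM difference was 0.055 ± 0.11 for Nfkb2, with a rank product P of 0.363 and an exact permutation p of 0.629. For Relb it was 0.038 ± 0.15, with a P of 0.332 and an exact permutation p of 0.8.

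The inhibitor Nfkbia, which retains NF-kB in the cytoplasm and is resynthesized within the first wave of its targets, had log2 values of 12.56, 12.32, 12.19 and 12.20 in PNY lungs, against 12.69, 12.18, 12.18 and 12.24 in SHAM lungs. Both arrays of 6 hours were above all the later ones. The surgeries had means of 12.32 ± 0.17 in PNY and 12.32 ± 0.25 in SHAM (SD, n = 4 arrays each), with a difference of -0.002 ± 0.11, a rank product P of 0.49 and an exact permutation p of 1. Nfkbie, a second inhibitor of the same kind, had 6.63, 7.49, 7.41 and 7.30 in PNY lungs, against 6.63, 7.18, 6.95 and 7.77 in SHAM lungs. Here both arrays of 6 hours were below all the later ones. The gene had the widest range of the 9, at 1.14, and its difference between surgeries was 0.073 ± 0.41, with a rank product P of 0.106 and an exact permutation p of 0.886.

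Bcl3, a nuclear IkB protein that binds p50 and p52 dimers on DNA, had log2 values of 7.97, 7.54, 7.65 and 7.63 in PNY lungs, against 8.02, 7.57, 7.49 and 7.80 in SHAM lungs. The 6 hour arrays were the highest pair. Nfkbiz, a nuclear IkB protein that helps NF-kB to switch on a second set of genes such as Il6 and Lcn2, had 8.40, 8.16, 8.62 and 8.51 in PNY lungs, against 8.26, 8.02, 8.53 and 8.71 in SHAM lungs. Its lowest pair was that of 1 day. The differences between surgeries were -0.024 ± 0.14 for Bcl3 (rank product P 0.418, exact permutation p 0.886) and 0.039 ± 0.16 for Nfkbiz (rank product P 0.324, exact permutation p 0.829).

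Tnfaip3 encodes A20, which removes activating ubiquitin chains from the receptor complexes. It had log2 values of 8.55, 8.37, 8.64 and 8.73 in PNY lungs, against 8.83, 8.15, 8.46 and 8.71 in SHAM lungs. The SHAM lungs of 6 hours had the highest value and those of 1 day the lowest. The PNY minus SHAM difference was 0.034 ± 0.22, with a rank product P of 0.326 and an exact permutation p of 0.857.

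**Figure D1:**
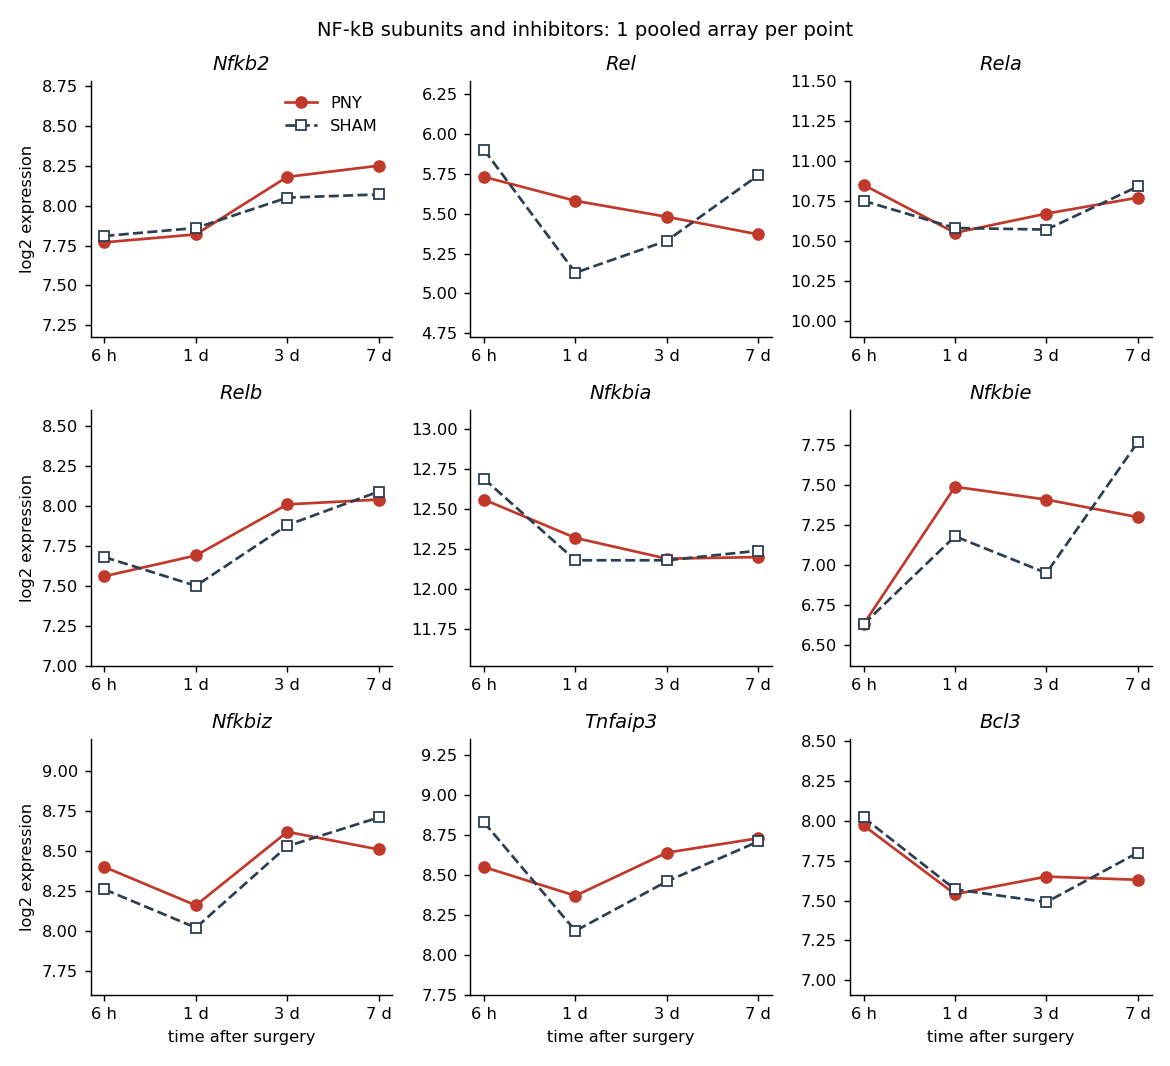
Log2 expression of the 9 measured NF-kB genes by time after surgery (evenly spaced), with filled circles for PNY and open squares for SHAM and 1 pooled array behind each point. All panels span the same log2 width, in which Rela moves over 0.30 and Nfkbie over 1.14, and the PNY and SHAM lines cross in every panel.

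The interval around each mean difference between surgeries states how large a mean over the time points could have gone unseen. It does not bound a change at a single time, and it holds no spread between mice. By limma, the 95% intervals of the 9 genes lay between -0.49 and 0.63, and with time point as a block between -0.30 and 0.42. None of the 9 genes was past an adjusted p (Benjamini-Hochberg) of 0.05, and 0 had an unadjusted p under 0.05, in either fit. Over all genes 0% were past the adjusted threshold in both fits as well, and 2.17% (5.9% with the block) had an unadjusted p under 0.05, so these counts do not set the members apart from other genes. The widest interval was that of Nfkbie, -0.27 to 0.42 with the block, and the block interval of Nfkb2 was -0.14 to 0.25. The exact permutation test over the 70 splits of the 8 arrays can give no p below 0.029.

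Within one time each surgery has 1 array, so these differences carry no test here. The paper also scored each time point separately, and at 6 hours describes NF-kB as down-regulated within a gene network, naming no subunit. That score was not computed here. On the arrays of 6 hours Nfkb2, Rel, Rela and Relb differed by -0.04, -0.17, 0.10 and -0.12, PNY minus SHAM. At 6 hours 2 of the 9 genes were higher in PNY lungs, at 1 day 6, at 3 days 9 and at 7 days 2. The member medians of the PNY minus SHAM difference were -0.06, 0.14, 0.13 and -0.08 at these times, where the medians over all genes were 0.02, 0.02, 0.01 and -0.00 and single genes had an SD of 0.232, 0.258, 0.214 and 0.277. No member reached a fold change of 1.5 in either direction at any time, a size that 1.72%, 2.97%, 1.65% and 3.46% of all genes reached at 6 hours and 1, 3 and 7 days.

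The widest differences at single times were in Nfkbie, which was 0.46 higher in PNY lungs at 3 days and 0.47 lower at 7 days, and in Rel, which was 0.45 higher at 1 day and 0.38 lower at 7 days. At 6 hours Tnfaip3 had the widest, at -0.27, and Nfkbia was at -0.13. At 7 days the summed level of 13 neutrophil markers was 6444 in PNY lungs and 14254 in SHAM lungs, and that of 8 B cell markers was 2071 in PNY lungs and 3285 in SHAM lungs. The neutrophil sum leans on its brightest genes, S100a8 (difference -1.76) and S100a9 (-1.75). The median difference over the neutrophil markers was -0.67, and Ltf was 0.85 higher in PNY lungs. The part of neutrophils and B cells in the 7 day differences was not tested. Whether the surgeries differed in another way at 6 hours than later was asked with the difference between the PNY minus SHAM differences. At 6 hours each surgery has 1 array, which is taken to vary like the later ones. The value ran between -0.13 for Nfkbiz and 0.41 for Tnfaip3, with 95% intervals between -1.04 and 1.16 and a limma adjusted p of 0.999 for every member. No member had an unadjusted p under 0.05. Over all genes 0% were past the adjusted threshold, and 1962 of 45037 probe sets had an unadjusted p under 0.05.

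**Figure D2:**
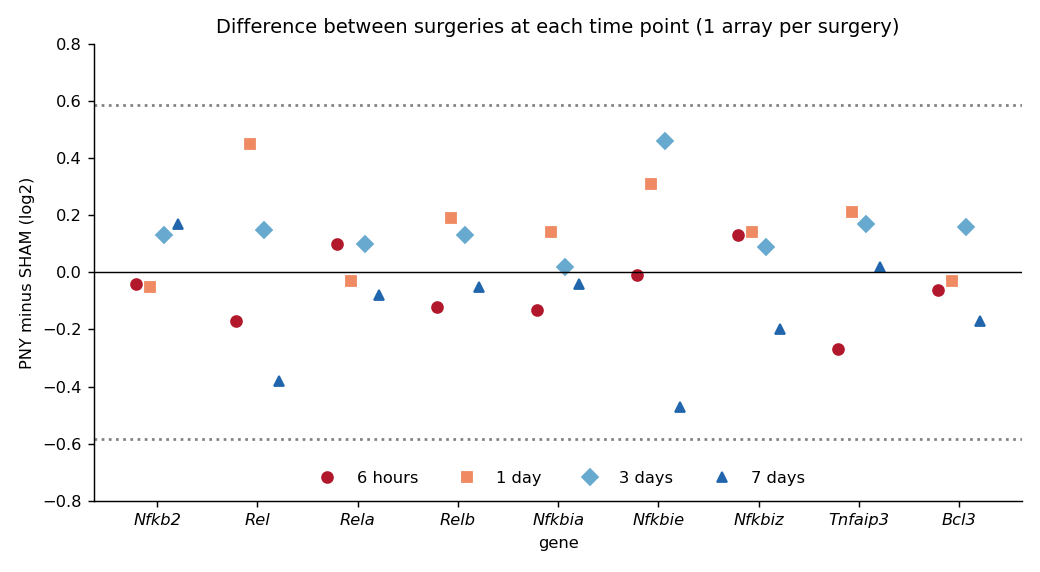
PNY minus SHAM difference in log2 expression for each of the 9 genes, with 1 symbol for each time point and 1 array per surgery behind each value. Dotted lines mark a 1.5-fold change either way (0.585 on the log2 scale), which no point reaches, and the diamonds of 3 days lie above 0 for all 9 genes.

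The clearest differences within the NF-kB genes lay between times and were shared by both surgeries. In the 6 lung pools of 1, 3 and 7 days, compared with the 2 of 6 hours, the inhibitor Nfkbia was lower and the inhibitor Nfkbie higher. Nfkbia had 12.18 to 12.32 on the 6 later arrays (mean 12.22 ± 0.05, SD) and 12.56 and 12.69 on the arrays of 6 hours, with no overlap. The difference was -0.41 (SE 0.09, 95% interval -0.61 to -0.20, limma adjusted p = 0.0303, exact permutation p = 0.0357), so the level at 6 hours was 1.33 times that at later times. Nfkbie had 6.95 to 7.77 on the later arrays (mean 7.35 ± 0.28, SD) and 6.63 on both arrays of 6 hours, also with no overlap. The difference was 0.72 (SE 0.18, 95% interval 0.30 to 1.13, limma adjusted p = 0.0479, exact permutation p = 0.0357), or 1.65-fold. The exact test over the 28 choices of 2 arrays can give no smaller p than this.

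Thus 1 of the 9 genes was past the threshold upward and 1 downward, where 7.01% of all genes were higher and 3.16% lower at the later times. The other 7 did not pass. An unadjusted p under 0.05 in limma was found for 4 of the 9 members and for 26.7% of all genes. The median later minus 6 hours difference was -0.14 over the members and 0.01 over all genes. Both calls rest on few arrays. Nfkbia was past the threshold in 2 of the 8 fits that each left out 1 array, those without the PNY or the SHAM array of 1 day, with adjusted p between 0.0297 and 0.325 and a difference between -0.49 and -0.32 over all 8. Nfkbie was also past it in 2, those without the SHAM array of 3 days or of 7 days, with adjusted p between 0.0258 and 0.28 and a difference between 0.61 and 0.80. The contrast as a whole leans on the arrays of 6 hours. It called 3336 of all probe sets, 266 without the PNY array of 6 hours and 335 without the SHAM array of 6 hours.

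Bcl3 came close in the same direction as Nfkbia. It had 7.49 to 7.80 on the later arrays and 7.97 and 8.02 on those of 6 hours, with no overlap, and a difference of -0.38 (SE 0.11, 95% interval -0.62 to -0.15, limma adjusted p = 0.0607, exact permutation p = 0.0357). Nfkb2 also did not overlap, with 7.82 to 8.25 on the later arrays and 7.77 and 7.81 at 6 hours, and a difference of 0.25 (limma adjusted p = 0.309). Groups of these sizes were apart for 2 members that were lower and 2 that were higher later, where 11.3% and 18.4% of all genes were. Rel had a difference of -0.38 (limma adjusted p = 0.192), with 1 later array, SHAM of 7 days, inside the range of 6 hours. For Rela, Relb, Nfkbiz and Tnfaip3 the differences were -0.14, 0.25, 0.10 and -0.18, with limma adjusted p between 0.419 and 0.812.

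The values of Nfkbia do not rest on 1 probe set. Besides 1420088_at, used above, 4 other probe sets measure the gene, and in all of them the mean of the later arrays was below that of 6 hours. Probe sets 1449731_s_at and 1448306_at were past the threshold, with differences of -0.56 (limma adjusted p = 0.00636) and -0.57 (limma adjusted p = 0.0177). Probe set 1438157_s_at gave -0.41 (limma adjusted p = 0.0699). The dimmest, 1420089_at, gave -0.64 (limma adjusted p = 0.471) with another course over time, in which the arrays of 1 day were as high as those of 6 hours and the PNY array of 7 days was at 6.45. For Nfkbie the other probe set, 1431843_a_at, gave 0.55 (limma adjusted p = 0.0916).

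**Figure D3:**
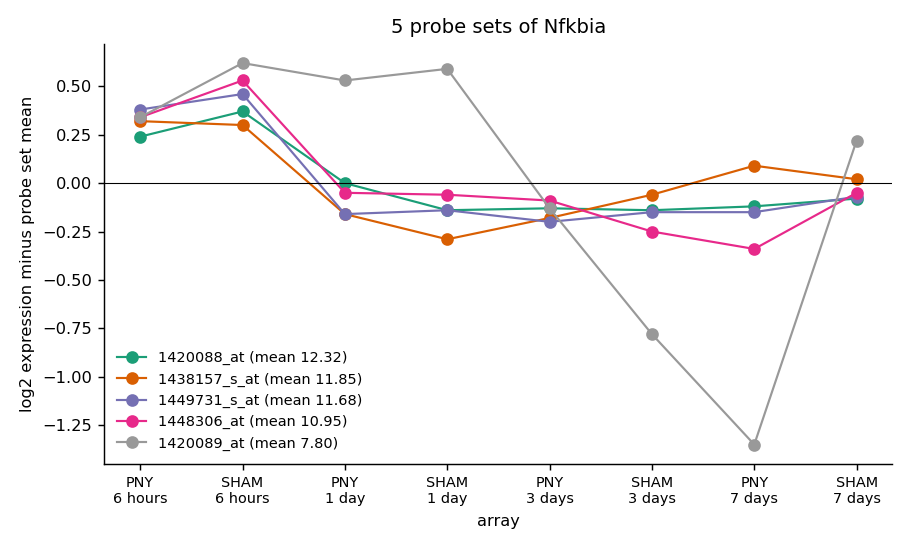
Log2 expression of the 5 Nfkbia probe sets on each of the 8 arrays, less the mean of each probe set, with PNY left of SHAM at each time. In 4 probe sets both arrays of 6 hours lie above the other 6, while 1420089_at follows another course with its lowest value on the PNY array of 7 days.

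Other gene groups moved over the same interval. Of 10 genes known to respond to glucocorticoids 8 were lower at the later times, with differences of -3.27 for the metallothionein Mt2, -2.77 for the chaperone Fkbp5, -1.52 for the cell cycle inhibitor Cdkn1a and -1.51 for the transcription factor Klf15, and the list's summed level was 15135 to 19561 on the later arrays and 44005 to 44399 at 6 hours. Of 13 measured neutrophil markers (15 listed) 4 were lower, the collagenase Mmp8 (-2.32), the chemokine receptor Cxcr2 (-1.39), Clec4d (-1.15) and Trem1 (-0.68), and the sum was 6444 to 14900 later and 19812 to 21577 at 6 hours. Of 8 measured B cell markers (10 listed) 6 were higher (Cd79a 1.31, Ms4a1 1.28, Fcer2a 1.26, Cd79b 0.98, Blk 0.87 and Cd22 0.53), with sums of 2071 to 3360 later and 1272 to 1506 at 6 hours. Higher at the later times were also 4 of 9 endothelial markers (Kdr 0.69, Tie1 0.66, Emcn 0.50 and Tek 0.45), 3 of 8 fibroblast markers (Col3a1 0.85, Tcf21 0.78 and Col1a1 0.50), Cx3cr1 (1.13) of 10 measured monocyte and macrophage markers and Cd1d1 (0.51) of 6 thymocyte markers, while no marker of T cells, dendritic cells, epithelium or red cell precursors passed limma's threshold. None of these lists has a marker at 0, since RMA gives every probe set a value. The part of these cells and of the glucocorticoid response in the differences of Nfkbia, Nfkbie and Bcl3 was not tested.

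A second difference between times was chosen after the values had been seen. In 3 genes the 4 arrays of 3 and 7 days lay above the 4 of 6 hours and 1 day. Nfkb2 had 8.05 to 8.25 on the arrays of 3 and 7 days and 7.77 to 7.86 on the earlier ones, a difference of 0.32 (SE 0.08, limma adjusted p = 0.161) or 1.25-fold. Relb had 7.88 to 8.09 on the arrays of 3 and 7 days and 7.50 to 7.69 on the earlier ones, a difference of 0.40 (SE 0.09, limma adjusted p = 0.136) or 1.32-fold. Nfkbiz had 8.51 to 8.71 at 3 and 7 days and 8.02 to 8.40 at 6 hours and 1 day, a difference of 0.38 (SE 0.11, limma adjusted p = 0.172) or 1.30-fold.

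Over all genes 8.43% have arrays apart in the direction of these 3 of 9 genes, and none of the 9 was apart in the other. Since the split was chosen after the values had been seen, setting these shares side by side is no test. No member was past the adjusted threshold, which 0.077% of all genes were, and the 3 had an unadjusted p under 0.05, as 16.7% of all genes did. The other 6 members had limma adjusted p between 0.382 and 0.926. Other probe sets ran against the difference in Nfkb2 (1429128_x_at, -0.24) and were mixed in Nfkbiz (1448728_a_at 0.20 and 1457404_at -0.23), while Relb has 1 probe set. The summed level of 8 dendritic cell markers was 1933 to 2080 at 3 and 7 days and 1525 to 1710 at the earlier times. That of the 10 glucocorticoid-responsive genes was also apart, with 15135 to 17192 at 3 and 7 days and 17304 to 44399 at 6 hours and 1 day. Of the monocyte and macrophage markers only Marco passed, 0.80 higher at 3 and 7 days (limma adjusted p = 0.0465), and no dendritic cell marker did. The part of any of these in the difference was not tested.

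**Figure D4:**
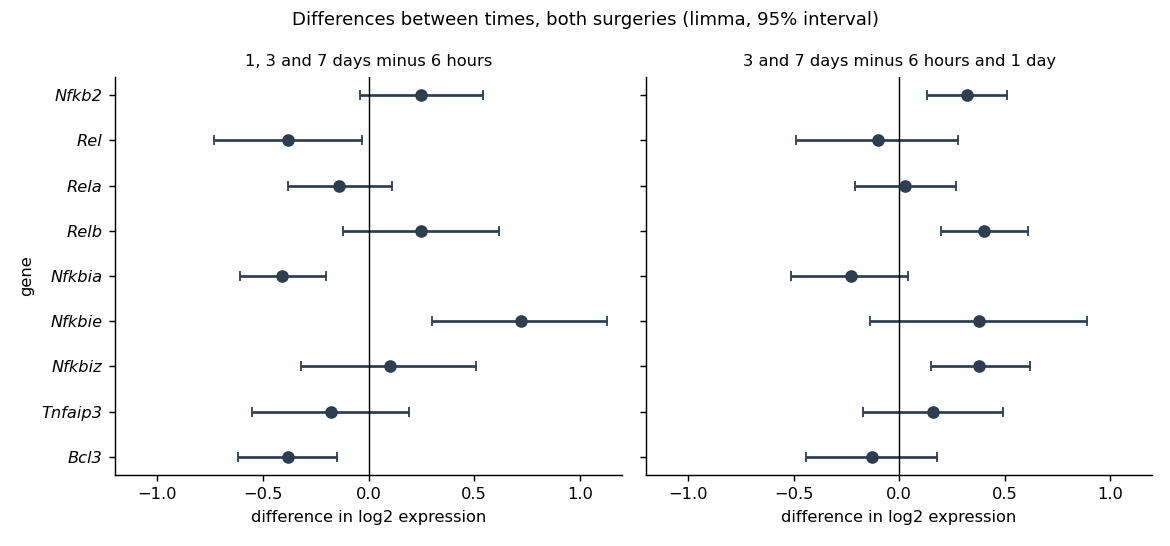
Differences in log2 expression between times for the 9 genes, both surgeries together, with 95% limma intervals as bars. Left, the 6 arrays of 1, 3 and 7 days minus the 2 of 6 hours, where Nfkbia (-0.41) and Nfkbie (0.72) passed the adjusted threshold. Right, the 4 arrays of 3 and 7 days minus the 4 of 6 hours and 1 day, where no gene did.

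**Figure D5:**
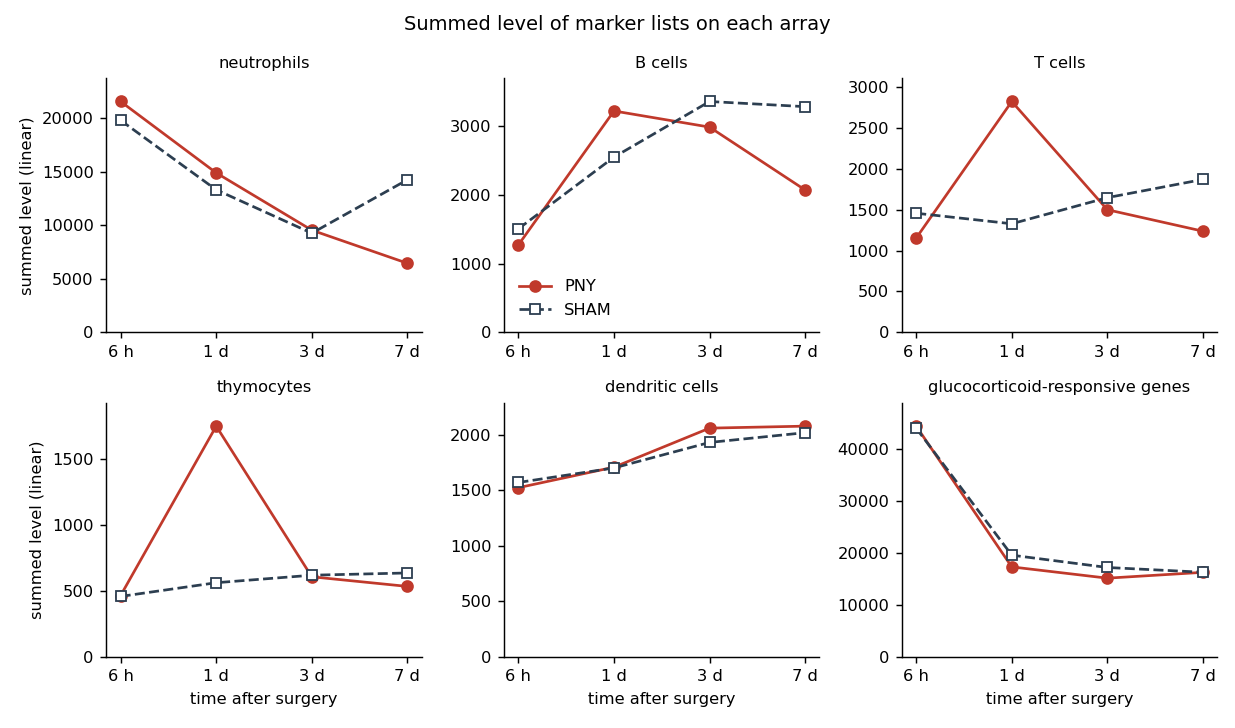
Summed linear level of the measured genes of 6 lists on each array, with filled circles for PNY and open squares for SHAM. The glucocorticoid and neutrophil sums are highest at 6 hours in both surgeries, the T cell and thymocyte sums peak on the PNY array of 1 day, and the dendritic cell sums of 3 and 7 days (1933 to 2080) lie above the earlier ones.

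Upstream of the subunits, the IKK kinases mark IkB proteins for breakdown. None of the genes in the pathway lists met the rank product criterion between PNY and SHAM. In the other lists the thymocyte gene Rag1 (mean difference 1.41) and the red cell precursor gene Alas2 (-0.89) met it. The glucocorticoid-responsive genes Zbtb16 (-0.78) and Klf15 (-0.59) did as well. Rag1 differed by 5.98 at 1 day and by -0.24, 0.24 and -0.34 at 6 hours, 3 days and 7 days. Between the later times and 6 hours, of 7 measured genes of the IKK complex and other IkB proteins (8 listed) 1 was higher, 1 lower and 5 did not pass, with a median of -0.27. The non-canonical kinase Ikbke was higher by 0.86 (SE 0.15, limma adjusted p = 0.0118), and the regulatory subunit Ikbkg (NEMO) was lower, at -0.44 (SE 0.10, limma adjusted p = 0.0268). The catalytic subunit Ikbkb had a difference of 0.09 (limma adjusted p = 0.683). Of 15 measured adaptors and kinases that lie between receptors and IKK (18 listed), 2 were higher and 1 lower and 12 did not pass, with a median of -0.00. The adaptors Traf5 and Tradd differed by 0.55 (limma adjusted p = 0.0478) and 0.49 (limma adjusted p = 0.0374), and the kinase Map3k8 (TPL2), which p105 holds inactive, by -0.80 (limma adjusted p = 0.00762).

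Among 12 receptors that signal through NF-kB only the accessory chain of the interleukin-1 receptor, Il1rap, passed, at -0.73 (SE 0.10, limma adjusted p = 0.00498). Of 10 measured negative regulators other than the members (11 listed) 0 passed in limma, with a median of -0.05. They include the A20 partners Tnip1 and Tax1bp1 and the deubiquitinase Cyld, which had differences of 0.11, -0.24 and 0.13.

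Of 39 measured target genes of NF-kB (40 listed) 4 were higher later, 4 were lower and 31 did not pass, with a median of -0.03. The higher ones were the membrane anchor of lymphotoxin Ltb (1.22, limma adjusted p = 0.00613), the chemokine Ccl5 (0.84, limma adjusted p = 0.0228), the adhesion receptor Vcam1 (0.66, limma adjusted p = 0.00897) and the costimulatory receptor Cd40 (0.46, limma adjusted p = 0.0395). The lower ones were the survival genes Bcl2l1 (-0.97, limma adjusted p = 0.00157) and Birc3 (-0.58, limma adjusted p = 0.00875), the stress gene Gadd45b (-0.61, limma adjusted p = 0.0187) and the interleukin-1 receptor antagonist Il1rn (-0.51, limma adjusted p = 0.0498). Ltb and Cd40 are also known as genes of lymphocytes and antigen-presenting cells.

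Between the surgeries at 6 hours, with 1 array each and no test, 15 of the 39 targets were higher and 24 lower in PNY lungs, with a median of -0.08. Over all genes 1.72% differed 1.5-fold at 6 hours, either way. Of the targets, a list chosen with earlier results of these data known, 8 were lower by at least that much and 2 higher. The lower ones were the cytokine and chemokine genes Il6 (-2.82), Cxcl1 (-1.50), Cxcl2 (-1.41), Csf3 (-0.87), Ccl3 (-0.79), Ccl2 (-0.72), Il1b (-0.61) and Ccl4 (-0.59), and the higher ones the acute phase genes Saa3 (0.60) and Orm1 (0.59). On the same arrays the difference was -0.13 for Nfkbia, -0.27 for Tnfaip3 and 0.13 for Nfkbiz. At 1 day 26 targets were higher and 13 lower, with a 1.5-fold difference in 1 each way. At 3 days 21 targets were higher and 18 lower, with a 1.5-fold difference in Il6 (1.47), Ccl2 (1.26) and Cxcl1 (0.63), all higher in PNY lungs. At 7 days 20 were higher and 19 lower, with a 1.5-fold difference in Selp (-0.70), Ltb (-0.63) and Saa3 (-0.60), all lower. Over all genes 2.97%, 1.65% and 3.46% differed 1.5-fold at 1, 3 and 7 days. Over the 4 time points Cxcl2 had a rank product P of 0.000247 with a mean difference of -0.49. Il6 had a P of 0.000885 with a mean difference of -0.12. Each P is the smaller of those for higher and for lower in PNY, so its direction need not be that of the mean difference. Il6 differed by -2.82, 0.35, 1.47 and 0.51 at 6 hours and 1, 3 and 7 days, so its mean joins opposite signs. Cxcl2 differed by -1.41, -0.51, 0.47 and -0.51 at these times. Cxcl2 and Il6 are under the P threshold and short of the 1.5-fold part of the criterion. So are Orm1 (P 0.000645, mean difference 0.56) and Cxcl5 (P 0.000928, 0.23). Orm1 was 1.48-fold higher in PNY here, and the paper lists it among its called genes with a fold change of 1.5.

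The genes most like a member over the 8 arrays were found for the 3 members of widest range, by the root mean square difference of the profiles after each gene's mean was taken off, among 12151 genes above the median level. Nfkbie was nearest to Aasdh (0.109), the pyrimidine synthesis enzyme Cad (0.124), the myosin Myo1e (0.125), St8sia6 (0.129) and Marcksl1 (0.129). Rel was nearest to Btbd19 (0.060), the prostaglandin E2 receptor Ptger4 (0.075), N6amt1 (0.076), the formyl peptide receptor Fpr2 (0.090) and Cldn4 (0.090). Nfkbiz was nearest to Dapp1 (0.079), the sterol synthesis enzyme Nsdhl (0.088), the gap junction gene Gjb2 (0.090), Cfap410 (0.090) and Slc25a1 (0.092). With only 8 arrays such likeness is a description.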

How the data were processed

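Each of the 8 Affymetrix arrays measured 1 pool of lung RNA, from PNY or SHAM mice at 6 hours or 1, 3 or 7 days. The authors' deposited values are log2 RMA values (background correction, quantile normalization, 1 value per probe set), a procedure that draws small differences of dim probe sets together. The RMA version is not given in the sources used here. Control probe sets (64 of 45101) were left out. Each gene stands by the single-symbol probe set of highest mean over the 8 arrays, with its other probe sets as a check.

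PNY and SHAM were compared by rank products over the 16 array pairs (1000 permutations, 100 for alternatives), coded in Python (3.11.15) using pandas 2.3.3 and numpy 2.4.6. Times and the difference of differences were compared with limma 3.58.1 in R 4.3.3, with surgery as a term for the times and Benjamini-Hochberg adjustment over all probe sets. The rank product P given for a gene is the smaller of those for higher and for lower in PNY. Single genes were also given an exact two-sided permutation test. The statistics were run on simulated data whose added effects were larger than any member difference. That run does not show how they behave at the size of the member differences. Figures were drawn with matplotlib 3.10.9. The limma and exact p-values measure the spread between pools of different times, not between mice. The rank product P is set against values shuffled among the probe sets of each array, and measures neither spread. Lists of pathway genes and cell markers, the members, the rule for named genes (all members and probe sets, every other list gene that passed a test where 6 or fewer did, otherwise the widest differences, and 5 nearest genes for 3 members) and the tests were chosen with earlier results of these data known. Alternatives were array centring, renewed quantile normalization, a median-level filter, averaging all probe sets of a gene, a time block, a trended and robust variance, no surgery term, other times, other thresholds, and leaving out each array.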

Additional observations from a re-analysis of the deposited data

Results flagged for a closer look

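Of the 18 groups of 4 arrays examined for a value far from the others (9 genes in each surgery), 1 was picked out, where chance gives about 1 in 20. In SHAM lungs Nfkbia had 12.69 at 6 hours, against 12.24 on the nearest array and 12.18 on the lowest, so that the gap was 0.874 of the whole range and above Dixon's critical value of 0.829. That array is the only SHAM array of 6 hours, and in PNY lungs the array of 6 hours was likewise the highest, at 12.56.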

How the results depend on the processing

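Between PNY and SHAM the number of NF-kB genes past the rank product criterion was 0 under every rank product alternative run, pairs of the same time included. It was also 0 by limma's adjusted p with and without the time block, fits that called 0 of 45037 probe sets. For later times against 6 hours the number past the limma threshold was 2. It was 3 under the median-level filter, without the surgery term and with the trended, robust variance, and 2 under renewed quantile normalization, both then lower later. It became 1 when all probe sets of a gene were averaged, 0 with 1 day alone as the later time, 1 with 3 and 7 days alone, 0 for 3 and 7 days against 6 hours and 1 day, and 0 to 2 without single arrays. Nfkbie was not past it under renewed quantile normalization (adjusted p 0.0525), averaged probe sets (0.0577), 1 day alone (0.0673) or 3 and 7 days alone (0.0598), nor Nfkbia with 1 day alone (0.212). Bcl3 passed under renewed quantile normalization (0.0293), the median-level filter (0.0255), no surgery term (0.0425) and the trended, robust variance (0.0438), and without the SHAM array of 7 days (0.0482). The cause of these shifts was not tested.

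Signs turned only for differences that were not past a threshold. Averaging probe sets gave -0.028 for Nfkbiz, PNY minus SHAM, and 0.083 for its change of that difference after 6 hours. That change was 0.005 for Rela after renewed quantile normalization and -0.019 for Bcl3 after centring. Later minus 6 hours was -0.025 for Relb and -0.240 for Nfkbiz with 1 day alone, and the contrast of 3 and 7 days with 6 hours and 1 day gave 0.029 for Rela and 0.159 for Tnfaip3.

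Without single arrays or both arrays of a time, PNY minus SHAM ran between -0.026 and 0.132 for Nfkb2, -0.130 and 0.147 for Rel, -0.021 and 0.078 for Rela, -0.058 and 0.140 for Relb, -0.083 and 0.120 for Nfkbia, -0.093 and 0.286 for Nfkbie, -0.081 and 0.149 for Nfkbiz, -0.094 and 0.137 for Tnfaip3, and -0.115 and 0.077 for Bcl3. Later minus 6 hours ran between -0.384 (without the PNY array of 6 hours) and 0.027 (without the SHAM array of 6 hours) for Tnfaip3. The change of the difference after 6 hours ran between -0.067 and 0.343 for Nfkbie, -0.328 and 0.017 for Nfkbiz, and -0.024 and 0.134 for Bcl3, and it could not be fitted without an array of 6 hours. The median-level filter leaves out Rel, the only member below that level.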
